A study of Homo sapiens with 19 samples.

Results

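The SLC25 family of mitochondrial carriers was followed through the fractions of K562, a long-established erythroleukaemia line of human origin. Members were the genes whose symbol is SLC25A followed by digits, with pseudogenes left out, which gave 48 of the 58051 human genes counted. Of these, 39 passed the filter on low counts in the rRNA-depleted libraries and 37 passed it in the comparison of wash preparations. A member that passed only because it was high in 1 group could still enter, so the counts given here are over the members tested and not over the whole family.

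RNA was sequenced in 19 libraries of 5 groups, all from untreated K562 cells. The groups were a nuclear wash prepared without rRNA depletion (3 libraries), and, with rRNA depletion, nuclear wash, nucleus, cytoplasm and whole cell (4 libraries each). No group carried a mutation, a transgene or an agent beyond what K562 itself carries, and all come from this 1 line. The study's title speaks of RNA flow across subcellular compartments, and the fractions divide the RNA of the cell into what was released as cytoplasm, what came off the nuclei in a wash, and what stayed with the nuclei. Whether replicates were separate cultures is not stated, and p-values therefore reflect how far these libraries vary, which may be technical variation only.

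Mitochondrial carriers are small proteins of the inner membrane that swap nucleotides, phosphate, metabolites, amino acids, cofactors and iron between the matrix and the space outside it. They cross the membrane several times, yet they are translated from nuclear mRNAs on cytosolic ribosomes and inserted into mitochondria after synthesis, through the TOM pore, small TIM chaperones and the TIM22 complex. Most other solute carriers are instead made on ribosomes bound to the endoplasmic reticulum (ER), whose membrane is continuous with the outer nuclear membrane. The SLC25 mRNAs therefore form a contrast to them. In erythroid cells the family is known for bringing iron and glycine into mitochondria for heme synthesis.

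A library held 923464 to 1801293 exon counts in the undepleted wash and 1373755 to 7955415 in the depleted groups, of which SLC25 genes took 930 to 1539 and 2333 to 15988. Levels are given as CPM, counts relative to library size, after TMM scaling, which centres the bulk of genes on no change. Of 6 landmark RNAs, 3 were higher and 3 lower in nucleus than in cytoplasm, beside 39.3% and 37.5% of all genes tested. MALAT1, a nuclear RNA, was higher in nucleus by 4.24 on the log2 scale, and GAPDH mRNA fell by 3.79. HSPA5, the mRNA of an ER chaperone, was higher in nuclear wash than in cytoplasm by 2.05, which became -1.13 with library sizes taken from the yeast spike-ins. Under TMM it was also higher in nucleus than in cytoplasm, by 0.48 (edgeR adjusted p = 0.00958). In nuclear wash 4 of the 6 landmarks were higher than in cytoplasm and 1 lower. MALAT1 was higher there by 1.93 under another scaling (RLE factors), so the wash was not free of nuclear RNA. All 10 markers of K562 identity passed the filter. Under TMM 9 of them were higher in nuclear wash than in nucleus, as were 36.7% of all genes tested. Against cytoplasm, 2 of them were higher in nuclear wash and 6 lower (median -0.39), beside 22.8% and 21.4% of all genes. Of 10 markers of other cell types 5 passed the filter, with a median of 1.61 in nuclear wash against cytoplasm. Among these, PTPRC, EPCAM, COL1A2 and PECAM1 were each higher in nuclear wash than in cytoplasm under TMM. Each had a fold change below 0 with spike-in library sizes. The summed level of these 10 markers was 438 to 454 CPM in nuclear wash, 192 to 230.0 in nucleus, 115 to 180.5 in cytoplasm and 171 to 225 in whole cell. Their part in the results below was not tested. The libraries are bulk RNA, so fewer cells holding an mRNA and less of that mRNA per cell cannot be told apart.

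The ADP/ATP carriers, which pass ATP out of the matrix in exchange for ADP, form a subfamily of similar coding sequence, and SLC25A5 and SLC25A6 had the lowest fold changes of nucleus against cytoplasm among the members tested. SLC25A4, SLC25A5 and SLC25A6 each have 894 coding bases in the principal transcripts of GENCODE 29. SLC25A4 and SLC25A5 are identical at 77.2% of these bases, SLC25A4 and SLC25A6 at 77.9%, and SLC25A5 and SLC25A6 at 78.8%. The window below covers coding bases 46 to 135. It was chosen as the window of 90 bases with the fewest differing positions, so it shows these related mRNAs where they are most alike: capitals mark the 15 of 90 positions at which the 3 mRNAs differ.
SLC25A4: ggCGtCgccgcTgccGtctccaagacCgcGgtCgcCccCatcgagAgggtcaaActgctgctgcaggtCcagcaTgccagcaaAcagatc
SLC25A5: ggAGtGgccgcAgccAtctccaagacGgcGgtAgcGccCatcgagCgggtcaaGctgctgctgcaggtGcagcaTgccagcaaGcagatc
SLC25A6: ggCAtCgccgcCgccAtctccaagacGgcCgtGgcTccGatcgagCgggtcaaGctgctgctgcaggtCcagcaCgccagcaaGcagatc
The longest run of identical coding bases was 14 between SLC25A4 and SLC25A5, 20 between SLC25A4 and SLC25A6, and 29 between SLC25A5 and SLC25A6. Stretches of 50 bases shared with any other gene made up 0% of SLC25A4, 4.57% of SLC25A5 and 0.94% of SLC25A6, with SLC25A5P3 and SLC25A6P2 sharing the most. Counts assigned to the 9 named pseudogenes of SLC25A5 were 0.324% of the sum of gene and pseudogene counts, and the 6 of SLC25A6 gave 0.987%. In other members this share was larger, at 17.3% for SLC25A14, 10.6% for SLC25A15, 8.01% for SLC25A24 and 3.87% for SLC25A39. On GRCh38 these genes lie at chr4:185143241-185150382 (SLC25A4, plus strand), chrX:119468400-119471319 (SLC25A5, plus strand) and chrX:1386152-1392724 (SLC25A6, minus strand). SLC25A6 lies in the pseudoautosomal region, which chromosome Y repeats, and its counts stand in a single row, while SLC25A5 overlaps an antisense gene by 227 exon bases.

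In whole cells the phosphate carrier SLC25A3 and the ADP/ATP carriers SLC25A5 and SLC25A6 led the family in CPM per kilobase of principal mRNA. SLC25A4, also an ADP/ATP carrier, had rank 25, at 4.89 ± 0.44 (SD, n = 4). Per kilobase of principal mRNA, SLC25A3 had 130.5 ± 8.22 CPM, SLC25A5 had 113.5 ± 9.15 and SLC25A6 had 51.7 ± 9.37 (SD, n = 4). SLC25A1, the citrate carrier, followed with 42.5 ± 7.62, SLC25A46, an outer-membrane member tied to mitochondrial shape, with 38.7 ± 5.78, and SLC25A37, the erythroid iron carrier mitoferrin, with 36.0 ± 2.71. By this measure SLC25A3 and SLC25A5 stood apart from the rest. The intervals of 1 SD around SLC25A6, SLC25A1, SLC25A46 and SLC25A37 each overlapped that of the next in order. Exon counts are over all exons of a gene, while the divisor is the principal mRNA alone, so the order depends on this choice of length. In GENCODE 29 the exons of SLC25A3 cover 8896 bases against an mRNA of 1678. Those of SLC25A46 cover 8283 against 2385, and those of SLC25A5 1500 against 1274. The 9 members that were not tested were SLC25A2, SLC25A18, SLC25A27, SLC25A31, SLC25A34, SLC25A45, SLC25A47, SLC25A48 and SLC25A52. SLC25A45 had the most exon counts among them, 62 over 16 libraries, and SLC25A52 had 0. SLC25A31 is the ADP/ATP carrier known from testis, and it had 3.

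Nucleus and cytoplasm were compared first, which asks which carrier mRNAs are held with the nuclei. The family lay on the cytoplasmic side: 24 of 39 tested members were lower in nucleus than in cytoplasm, 5 were higher, and the median log2 fold change was -0.98. Of all 15940 genes tested, 37.5% were called lower and 39.3% higher, with a median of 0.03. The lower share among members was thus 61.5%, against 37.5% of all genes. Calls are from the quasi-likelihood test of edgeR at a Benjamini-Hochberg adjusted p under 0.05 over all genes, n = 4 per group. Within column prefixes, which mark 2 sets of libraries in the tables, 4 members were higher and 24 lower of 39 with the prefixes that begin with 1, and 6 and 24 of 41 with those that begin with 2. Counts without composition scaling gave 13 higher and 18 lower, and library sizes taken from the spike-ins gave 3 and 31, so the direction of members near 0 depends on the scaling.

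**Figure D1:**
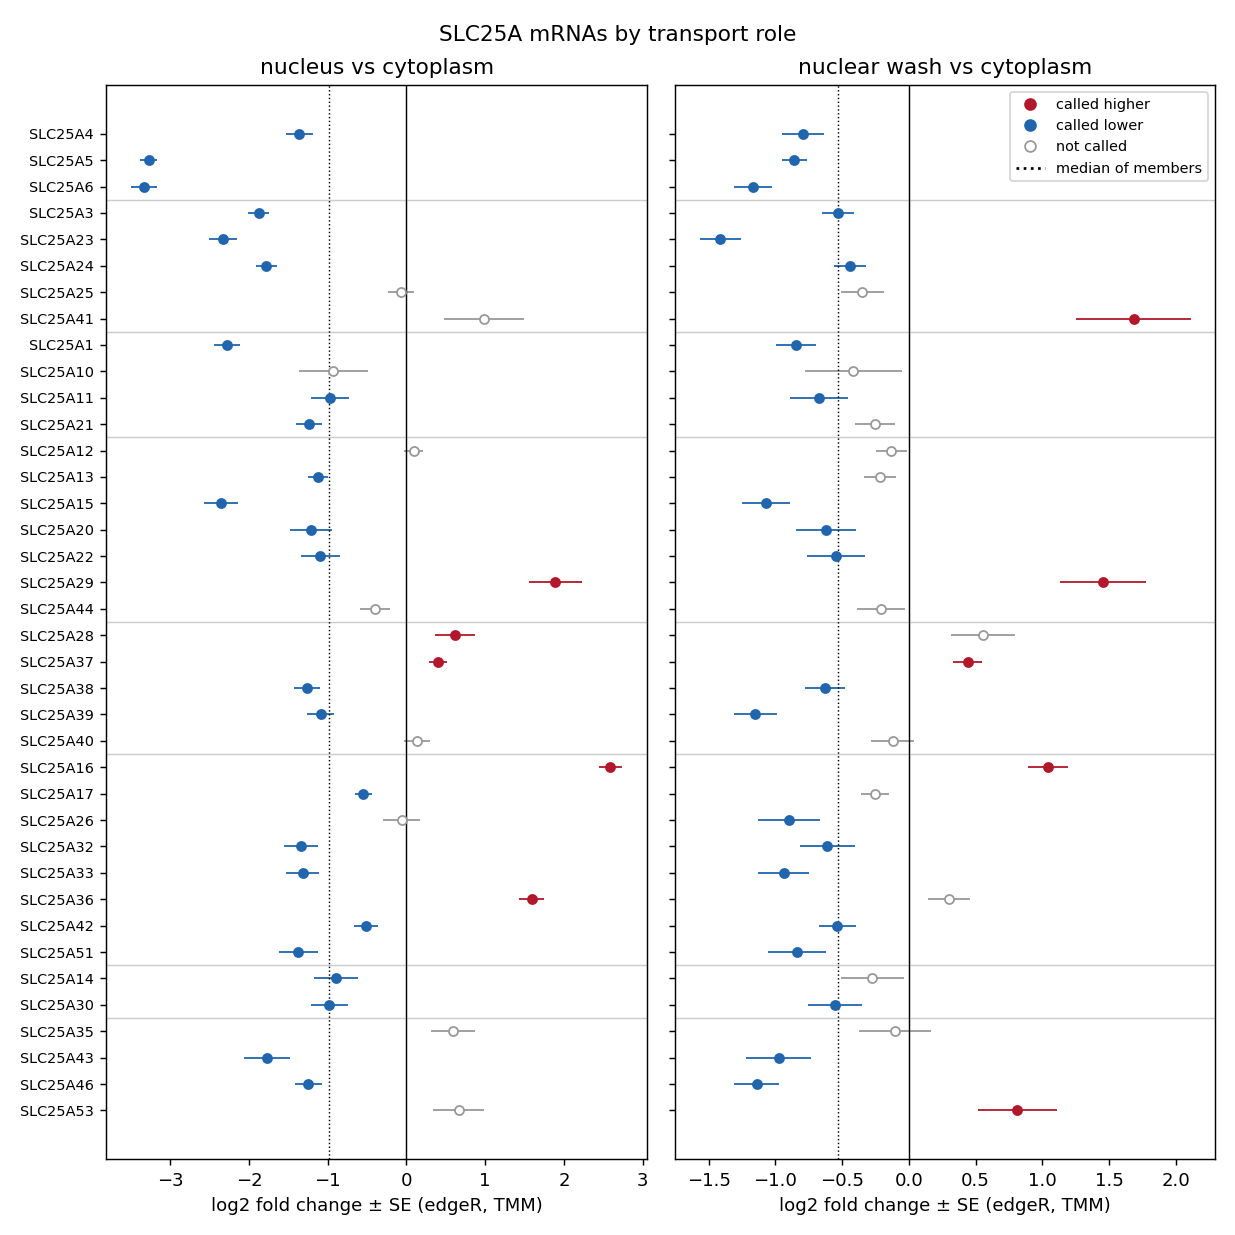
Log2 fold change ± SE of 38 of the 39 tested SLC25A mRNAs (edgeR, TMM, n = 4 libraries per group), for nucleus against cytoplasm (left) and nuclear wash against cytoplasm (right), with horizontal lines between transport roles from ADP/ATP carriers at the top to carriers of less settled substrate at the bottom. In the left panel SLC25A5 and SLC25A6 lie beyond -3 and SLC25A16 beyond 2, and the dotted medians over all 39 are -0.98 (left) and -0.53 (right); with spike-in library sizes every point in the right panel lies below 0.

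All 3 tested ADP/ATP carriers fell in nucleus and in nuclear wash relative to cytoplasm. SLC25A5, the isoform of dividing cells, had 152, 150.1, 157 and 152 CPM in nuclear wash, 28.2, 29.6, 28.8 and 27.5 in nucleus, 265, 268, 282 and 291 in cytoplasm and 141, 140.2, 136 and 162 in whole cell. SLC25A6, a broadly expressed isoform, had 68.1, 78.0, 94.3 and 99.8 CPM in nuclear wash, 17.9, 18.9, 19.3 and 20.2 in nucleus, 179, 163, 219.7 and 206 in cytoplasm and 105, 82.5, 109 and 129.7 in whole cell. For both, every nuclear library lay below every other library, every cytoplasmic library lay above every other, and nuclear wash and whole cell overlapped. The fold changes of nucleus against cytoplasm were -3.27 ± 0.11 for SLC25A5 (SE, edgeR adjusted p = 4.49e-15) and -3.33 ± 0.17 for SLC25A6 (edgeR adjusted p = 3.98e-13), which are 9.66-fold and 10.1-fold lower. SLC25A4, the isoform of heart and skeletal muscle, had 20.2, 15.2, 19.6 and 23.7 CPM in nuclear wash, 10.3, 11.7, 12.2 and 19.7 in nucleus, 35.3, 34.4, 32.8 and 33.4 in cytoplasm and 20.7, 21.1, 20.4 and 24.6 in whole cell. Cytoplasm again lay above the other groups, but 1 nuclear library reached into the range of the nuclear wash. Its nucleus-to-cytoplasm fold change was -1.36 ± 0.17 (SE, edgeR adjusted p = 4.23e-07), less negative than those of SLC25A5 and SLC25A6, a difference between genes that was not tested.

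**Figure D2:**
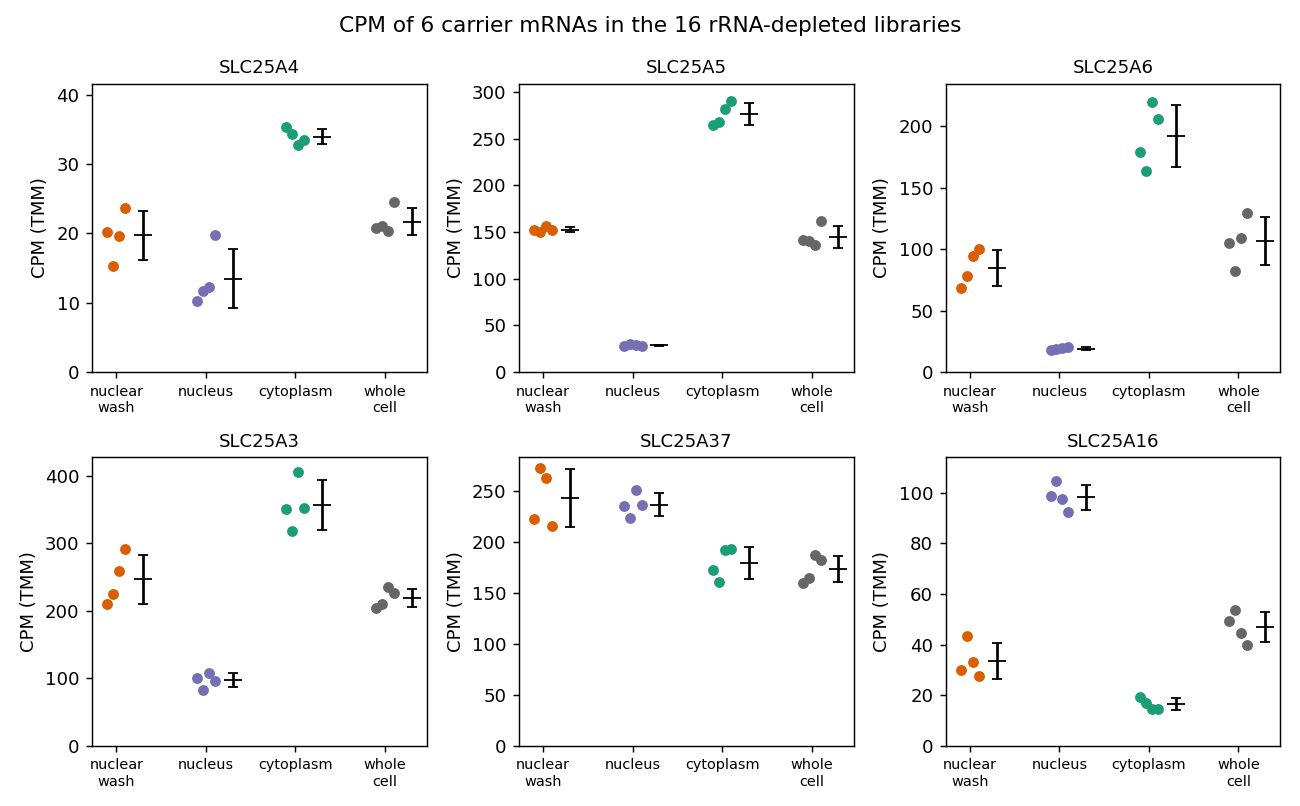
CPM (TMM scaling, linear axes from 0) of SLC25A4, SLC25A5, SLC25A6, SLC25A3, SLC25A37 and SLC25A16 in each of the 16 depleted libraries, with black bars for mean ± SD (n = 4) beside the points. SLC25A5 averaged 28.5 CPM in nucleus and 276 in cytoplasm, whereas SLC25A16 averaged 98.3 in nucleus and 16.4 in cytoplasm.

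Among the phosphate and ATP-Mg/phosphate carriers, 3 of 5 were lower in nucleus than in cytoplasm and 0 were higher. SLC25A3, which brings phosphate for ATP synthesis and also copper into the matrix, lies at chr12:98593591-98606379. It had 210.4, 225, 259 and 292 CPM in nuclear wash, 100.4, 83.2, 108 and 96.0 in nucleus, 351, 318, 406 and 353 in cytoplasm and 205, 210.4, 235 and 226 in whole cell. The 4 cytoplasmic libraries lay above all others and the 4 nuclear ones below, and the fold change of nucleus against cytoplasm was -1.88 ± 0.13 (SE, edgeR adjusted p = 3.36e-11). SLC25A23, one of the calcium-regulated carriers that trade ATP-Mg for phosphate, had 19.1, 18.5, 19.3 and 21.9 CPM in nuclear wash, between 7.34 and 14.5 in its 4 nuclear libraries (median 10.7), 48.8, 48.3, 58.2 and 55.0 in cytoplasm and 36.9, 27.9, 24.4 and 32.8 in whole cell. None of these ranges overlapped, and nucleus lay below cytoplasm by a log2 fold change of -2.33 ± 0.18 (SE, edgeR adjusted p = 1.56e-10). Its relative SLC25A24 was lower by -1.78 ± 0.14 in nucleus (SE, edgeR adjusted p = 1.71e-10), and is uncertain because its 2 named pseudogenes had 184 counts in nucleus, beside 299 of the gene. SLC25A25 had a fold change of -0.07 and SLC25A41, at 2.38 ± 0.83 CPM in nucleus and 1.25 ± 0.92 in cytoplasm, one of 0.99, and neither passed the test (edgeR adjusted p = 0.715 and 0.0809).

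Of the 4 di- and tricarboxylate carriers, 3 fell in nucleus against cytoplasm. The citrate carrier SLC25A1 (chr22:19175575-19178830), which exports citrate for fatty acid synthesis, had 54.5, 61.8, 82.0 and 76.1 CPM in nuclear wash, 26.4, 30.6, 22.0 and 23.4 in nucleus, 114, 110.3, 137 and 135 in cytoplasm and 71.2, 64.2, 57.6 and 86.9 in whole cell. Nuclear libraries were the lowest and cytoplasmic ones the highest without overlap, at a fold change of -2.27 ± 0.16 (SE, edgeR adjusted p = 8.17e-11). The oxoglutarate carrier SLC25A11 (-0.97) and the oxodicarboxylate carrier SLC25A21 (-1.24) fell too, whereas the dicarboxylate carrier SLC25A10 (-0.93) did not pass the test at an edgeR adjusted p of 0.0584. Its counts are uncertain, because 63.9% of its 50-base stretches also occur in another annotated gene, AC139530.2.

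Amino acid and carnitine carriers gave 4 lower and 1 higher of 7 tested. SLC25A15, which carries ornithine for the urea cycle, had 10.3, 8.87, 10.2 and 16.4 CPM in nuclear wash, 3.59, 5.50, 4.08 and 5.71 in nucleus, 25.6, 26.1, 24.0 and 20.5 in cytoplasm and 12.8, 12.8, 15.03 and 16.4 in whole cell. Nuclear values were the lowest and cytoplasmic ones the highest, with a fold change of -2.35 ± 0.22 between them (SE, edgeR adjusted p = 4.28e-09). This value is uncertain, since its 5 named pseudogenes had 64 counts in nucleus, beside 50 counts of the gene itself. The aspartate-glutamate carriers of the malate-aspartate shuttle differed from each other: SLC25A13 fell by 1.13 on the log2 scale, while SLC25A12 had a fold change of 0.09 that did not pass the test (edgeR adjusted p = 0.497). The difference between them was not tested. SLC25A20, for acylcarnitines, and SLC25A22, for glutamate, fell by 1.22 and 1.09, and SLC25A44, for branched-chain amino acids, had -0.40 (edgeR adjusted p = 0.0602). SLC25A44 passed in a fit with replicate number as block, at -0.39 and an edgeR adjusted p of 0.0369. SLC25A29, a carrier of basic amino acids, was the member that rose, with 6.28, 5.16, 9.25 and 8.30 CPM in nucleus and 2.38, 2.87, 1.62 and 0.937 in cytoplasm and a fold change of 1.89 ± 0.33 (SE, edgeR adjusted p = 2.84e-05). It overlaps exons of 2 other genes, and was singled out after its values were seen.

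Of 5 tested iron, heme and glutathione carriers, 2 were lower and 2 higher in nucleus than in cytoplasm. These shares were near those of all genes tested, 37.5% lower and 39.3% higher. SLC25A37 had 222, 272, 263 and 215 CPM in nuclear wash, 236, 224, 251 and 237 in nucleus, 173, 160.3, 192 and 193 in cytoplasm and 160.1, 165, 187 and 182 in whole cell. Both the wash and the nuclear libraries lay above all cytoplasmic and whole-cell libraries. The nucleus-to-cytoplasm fold change was 0.40 ± 0.11 (SE, edgeR adjusted p = 0.00275), which turned to -0.22 with spike-in library sizes and to -0.20 in gene-body counts. Without the low-count filter it was 0.25 and did not pass the test (edgeR adjusted p = 0.153). SLC25A38, which carries glycine to the first step of heme synthesis, had 26.1, 29.1, 31.2 and 25.4 CPM in nuclear wash, 23.8, 15.5, 13.9 and 20.8 in nucleus, 47.0, 44.0, 42.1 and 40.8 in cytoplasm and 26.8, 31.9, 21.9 and 22.1 in whole cell. Its cytoplasmic libraries stood above all others, and nucleus was lower than cytoplasm by -1.26 ± 0.17 (SE, edgeR adjusted p = 5.95e-07).

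The glutathione carriers SLC25A39 and SLC25A40 are close relatives, and the difference between their fold changes was not tested. SLC25A39 had 16.9, 20.7, 24.1 and 24.1 CPM in nuclear wash, 28.2, 26.8, 21.5 and 13.0 in nucleus, 47.2, 46.4, 53.0 and 45.9 in cytoplasm and 35.8, 34.9, 29.8 and 35.0 in whole cell. SLC25A40 had 34.2, 50.4, 50.1 and 45.6 CPM in nuclear wash, 56.5, 65.3, 48.1 and 47.2 in nucleus, 47.6, 48.7, 51.6 and 49.8 in cytoplasm and 30.1, 50.5, 53.6 and 37.8 in whole cell. SLC25A39 was lower in nucleus than in cytoplasm without overlap (-1.09 ± 0.17, SE, edgeR adjusted p = 5.54e-06), whereas all groups of SLC25A40 overlapped (0.14 ± 0.16, edgeR adjusted p = 0.453). The second mitoferrin, SLC25A28, had 7.36, 4.36, 6.78 and 5.73 CPM in nuclear wash, 4.93, 5.50, 7.07 and 7.26 in nucleus, 5.16, 4.44, 3.24 and 3.44 in cytoplasm and 5.27, 4.19, 4.07 and 6.37 in whole cell. Its groups overlapped, and its call as higher in nucleus (0.62 ± 0.26, SE, edgeR adjusted p = 0.0347) is a weak one. The adjusted p rose above the threshold when cytoplasm replicate 2, 3 or 4 or nucleus replicate 3 or 4 was left out (edgeR adjusted p = 0.0501, 0.116, 0.1, 0.0978 and 0.0707), and the fold change was -0.012 with spike-in library sizes.

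Nucleotide, cofactor and vitamin carriers gave 5 lower and 2 higher of 9 tested. SLC25A16, a carrier linked to coenzyme A (chr10:68477999-68527474), had 29.8, 43.4, 33.2 and 27.6 CPM in nuclear wash, 98.6, 104, 97.6 and 92.3 in nucleus, 19.4, 17.0, 14.6 and 14.5 in cytoplasm and 49.4, 53.6, 44.5 and 40.0 in whole cell. SLC25A36, a pyrimidine nucleotide carrier (chr3:140941830-140980961), had 74.7, 90.6, 72.9 and 67.3 CPM in nuclear wash, 188, 185, 186 and 189 in nucleus, 60.1, 58.6, 69.4 and 60.6 in cytoplasm and 58.4, 114, 109 and 81.0 in whole cell. Every nuclear library of both genes lay above every other library, whereas those of SLC25A5 and SLC25A6 lay below every other library. Against cytoplasm the nuclear fold changes were 2.59 ± 0.15 for SLC25A16 (SE, edgeR adjusted p = 3.01e-12, 6.01-fold higher) and 1.59 ± 0.16 for SLC25A36 (SE, edgeR adjusted p = 1.18e-08). SLC25A32, for folate, SLC25A33, the other pyrimidine carrier, and SLC25A51, for NAD, fell by 1.34, 1.31 and 1.37. SLC25A17, which sits in peroxisomes and not in mitochondria, and SLC25A42, for coenzyme A, fell by 0.55 and 0.51, and without composition scaling both had fold changes above 0, at 0.073 and 0.10. SLC25A26, for S-adenosylmethionine, had a fold change of -0.06 and did not pass the test. Counts of SLC25A32, SLC25A51 and SLC25A33 are uncertain, since 87.9%, 28.5% and 20.7% of their 50-base stretches recur in other annotated genes.

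Among the uncoupling-protein-like carriers SLC25A14 and SLC25A30 fell by 0.89 and 0.98. The named pseudogene of SLC25A14 had 50 counts in nucleus, beside 41 of the gene, so its value is uncertain. Of the 4 tested carriers of the outer membrane or of less settled substrate, SLC25A43 and SLC25A46 fell by 1.77 and 1.25, and SLC25A35 and SLC25A53 had fold changes of 0.60 and 0.66 that did not pass the test (edgeR adjusted p = 0.0582 and 0.071).

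The nuclear wash was then compared with cytoplasm. Of 39 tested members 21 were lower in nuclear wash, 5 were higher, and the median was -0.53, against 21.4% lower, 22.8% higher and a median of 0.05 over all genes tested (edgeR). The larger share of lower calls among members, 53.8%, covered each role: all 3 ADP/ATP carriers, 3 of 5 phosphate and ATP-Mg/phosphate carriers, 2 of 4 di- and tricarboxylate carriers, 3 of 7 amino acid and carnitine carriers, 2 of 5 iron, heme and glutathione carriers and 5 of 9 nucleotide and cofactor carriers. Within column prefixes the counts were 4 higher and 22 lower of 39, and 5 and 15 of 41. Leaving out single libraries moved the number lower between 18 and 22.

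SLC25A23 fell by the largest amount in nuclear wash among members of at least 10 CPM, -1.42 ± 0.15 (SE, edgeR adjusted p = 3.05e-07), followed by SLC25A6 at -1.17 ± 0.14 and SLC25A39 at -1.15 ± 0.16 (SE, edgeR adjusted p = 1.6e-06 and 8.35e-06). None of the wash libraries of these 3 genes reached the range of cytoplasm. SLC25A46 (-1.14), SLC25A15 (-1.07), SLC25A5 (-0.86), SLC25A1 (-0.85), SLC25A4 (-0.79) and SLC25A3 (-0.53) fell as well. The members higher in nuclear wash were SLC25A41 at 1.69 ± 0.43, SLC25A29 at 1.45 ± 0.32, SLC25A16 at 1.05 ± 0.15, SLC25A53 at 0.81 ± 0.30 and SLC25A37 at 0.44 ± 0.11 (SE, edgeR adjusted p = 0.00321, 0.00101, 1.08e-05, 0.0308 and 0.00297), and with spike-in library sizes the same genes had -1.48, -1.69, -2.11, -2.32 and -2.71. SLC25A41 and SLC25A53 are low, at 4.08 and 4.16 CPM in nuclear wash and 1.25 and 2.20 in cytoplasm. The call of SLC25A53 was lost without nuclear wash replicate 1, which had 6.99 CPM against 2.80 to 3.57 in the others, or without cytoplasm replicate 1, 2 or 4 (edgeR adjusted p = 0.149, 0.0641, 0.0839 and 0.071). In the fit with replicate number as block, SLC25A17 at -0.25 and SLC25A25 at -0.35 also passed (edgeR adjusted p = 0.0429 and 0.0416).

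Other solute carriers took another course in the nuclear wash. Outside SLC25, 316 genes carry a symbol of the form SLC, a family number, a letter and a member number, and 154 of them were tested. In nuclear wash against cytoplasm 93 of these were higher and 6 lower, with a median of 0.74, where the SLC25 members had 5 higher and 21 lower. The other carriers' shares were 60.4% higher and 3.90% lower, beside 22.8% and 21.4% of all genes tested. In nucleus against cytoplasm the other carriers had 56 higher and 45 lower (median 0.23), against 5 and 24 in SLC25. These were 36.4% and 29.2% of the other carriers, both below the 39.3% and 37.5% of all genes tested. The glucose transporter SLC2A3, for example, averaged 548 CPM in nuclear wash and 145 in cytoplasm (1.92 ± 0.17, SE, edgeR adjusted p = 1.71e-08). The monocarboxylate carrier relative SLC16A4 averaged 14.6 and 1.45 (3.34 ± 0.27, edgeR adjusted p = 7.44e-09), but was highest in nucleus among these 3 fractions, at 73.9 CPM. With spike-in library sizes SLC2A3 and SLC16A4 had -1.27 and 0.22 in nuclear wash against cytoplasm. Among the 6 lower were the zinc transporter family gene SLC30A9, a mitochondrial protein, at -1.09 ± 0.11, and the nucleotide-sugar transporter relative SLC35A4 at -0.92 ± 0.14 (SE, edgeR adjusted p = 1.8e-07 and 2.68e-05). In nucleus against cytoplasm SLC16A4 (5.70) and SLC38A6 (2.84), an amino acid transporter relative, rose most at 10 CPM or more, and SLC7A8 (-2.94), an amino acid transporter, and SLC35A4 (-2.70) fell most.

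**Figure D3:**
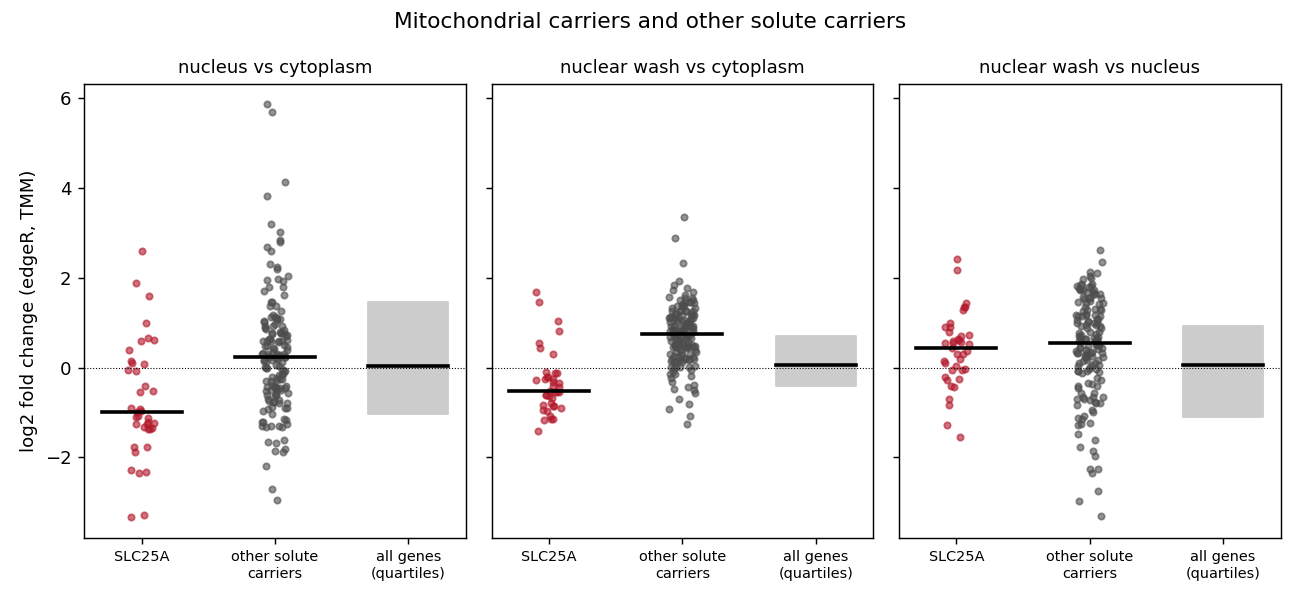
Log2 fold changes (edgeR, TMM) of the 39 tested SLC25A genes, of the 154 tested solute carriers outside SLC25 and, as a grey box from the lower to the upper quartile, of all 15940 genes tested, with thick lines at the medians. In the middle panel, nuclear wash against cytoplasm, the medians are -0.53, 0.74 and 0.05; with spike-in library sizes they are -3.70, -2.44 and -3.10, in the same order.

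These contrasts were set against the median of all genes, since scalings move all fold changes together. The median of all genes with spike-in library sizes was -0.60 for nucleus against cytoplasm, -3.10 for nuclear wash against cytoplasm and -2.47 for nuclear wash against nucleus, and without composition scaling it was 0.64, -0.01 and -0.61. Relative to it, the SLC25 median in nuclear wash against cytoplasm was -0.58 under TMM and -0.60 with spike-ins, and that of the other solute carriers was 0.69 and 0.67. For nucleus against cytoplasm the SLC25 median lay at -1.01 under TMM and -1.03 with spike-ins relative to all genes. Gene-body counts, which include introns, gave smaller distances for SLC25, -0.23 in nuclear wash and -0.41 in nucleus. Under TMM 32 of 39 members lay below the all-gene median in nuclear wash against cytoplasm, and 23 of the 154 other solute carriers did.

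A ratio within each library needs no scaling at all. Summed SLC25 exon counts divided by those of the other solute carriers came to 0.185, 0.142 and 0.147 in the undepleted wash, 0.168, 0.164, 0.134 and 0.143 in nuclear wash, 0.220, 0.231, 0.183 and 0.188 in nucleus, 0.422, 0.399, 0.393 and 0.389 in cytoplasm and 0.298, 0.295, 0.257 and 0.274 in whole cell. Wash libraries were the lowest and cytoplasmic ones the highest of the depleted groups, and none of the 4 depleted groups overlapped another. The means were 0.152 ± 0.017 in nuclear wash, 0.206 ± 0.024 in nucleus, 0.401 ± 0.015 in cytoplasm and 0.281 ± 0.019 in whole cell (SD, n = 4). SLC25A3 gave 14.1% of the SLC25 counts in the depleted libraries, SLC25A37 11.3% and SLC25A5 9.60%. Without the largest contributor on each side, SLC25A3 and SLC38A1, a check added after the data were seen, the means were 0.138, 0.200, 0.363 and 0.260 in the same order of groups.

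**Figure D4:**
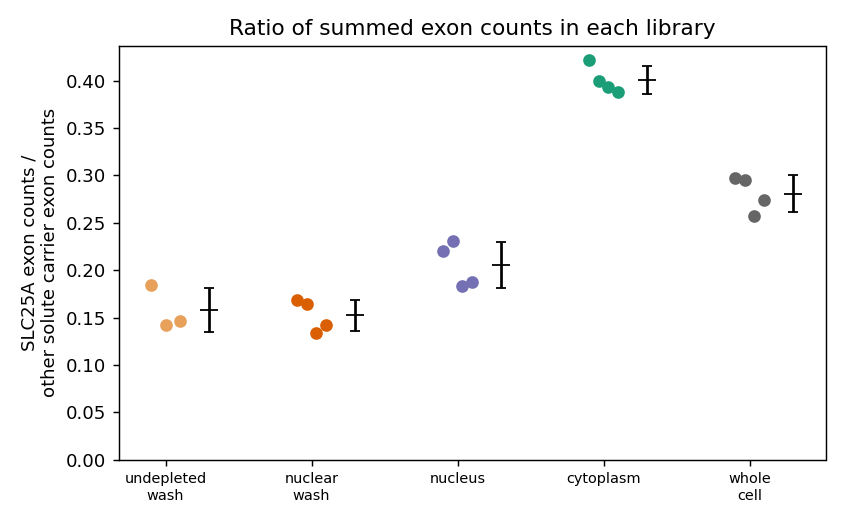
Summed exon counts of the SLC25A genes divided by those of the solute carriers outside SLC25, 1 point per library, with bars for mean ± SD (n = 3 in undepleted wash, 4 in the other groups). Cytoplasmic libraries sit between 0.389 and 0.422, and depleted wash libraries between 0.134 and 0.168.

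Nuclear wash and nucleus were compared next, a comparison that shares its wash libraries with the one against cytoplasm. Under TMM 14 of 39 members were higher in nuclear wash and 4 lower, with a median of 0.43, against 36.7% higher, 35.4% lower and a median of 0.06 over all genes (edgeR). The 35.9% of members higher is close to the share of all genes. This split depends on the scaling, with 12 higher and 8 lower under RLE factors, 6 and 16 without composition scaling and 0 and 37 with spike-in library sizes. Within column prefixes it was 12 and 5 of 39, and 14 and 4 of 41.

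SLC25A5 and SLC25A6 had the largest increases of the family in this comparison under TMM. SLC25A5 rose by 2.41 ± 0.11 and SLC25A6 by 2.16 ± 0.17 (SE, edgeR adjusted p = 9.51e-13 and 5.56e-10), and with spike-in library sizes they had -0.12 and -0.41. SLC25A1 at 1.43 ± 0.17 and SLC25A3 at 1.35 ± 0.13 followed (SE, edgeR adjusted p = 1.77e-07 and 1.01e-08), with -1.13 and -1.22 under spike-ins. SLC25A4 was called at 0.57 ± 0.18 (SE, edgeR adjusted p = 0.0084), but its groups overlapped, the call was lost in a fit of the 2 groups alone (edgeR adjusted p = 0.118), and the fold change was -0.12 without composition scaling and -2.01 with spike-ins. Lower in nuclear wash were SLC25A16 at -1.54 ± 0.14, SLC25A36 at -1.29 ± 0.16, SLC25A26 at -0.83 ± 0.26 and SLC25A35 at -0.70 ± 0.29 (SE, edgeR adjusted p = 8.59e-09, 4.02e-07, 0.00664 and 0.0355). SLC25A35 had 1.10 CPM in nuclear wash replicate 1 and 4.46 to 4.71 in the other wash libraries, and its call was lost without that library (-0.45, edgeR adjusted p = 0.0937) and without nucleus replicate 1, 2 or 3 (edgeR adjusted p = 0.0563, 0.0779 and 0.0607). SLC25A39 had -0.51 with the first prefixes and 0.40 with the second, and -0.06 over both (edgeR adjusted p = 0.771).

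Other solute carriers had 78 higher and 30 lower of 154 in nuclear wash against nucleus, beside 36.7% and 35.4% of all genes tested. Their median was 0.55, near that of SLC25 at 0.43. SLC7A8 (2.61) and the copper transporter SLC31A1 (2.12) rose most under TMM, with 0.021 and -0.49 under spike-ins, and SLC16A4 (-2.35) and SLC38A6 (-1.76) fell most at 10 CPM or more. The medians of SLC25 and of the other solute carriers under TMM differed in sign against cytoplasm and shared their sign against nucleus, whereas with spike-in library sizes both medians were below 0 in all 3 comparisons.

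Each fraction was also set against whole-cell RNA. In cytoplasm 19 of 39 members were higher than in whole cell and 3 lower (median 0.39), against 22.3% and 27.6% of all genes. The members lower in cytoplasm were SLC25A16 (-1.52), SLC25A29 (-1.14) and SLC25A36 (-0.55), and SLC25A5 (0.94), SLC25A6 (0.85) and SLC25A3 (0.70) were among those higher under TMM, with -0.32, -0.42 and -0.54 under spike-ins. In nucleus 4 were higher and 19 lower than in whole cell (median -0.58), against 25.9% and 29% of all genes. The 4 were SLC25A16 (1.07), SLC25A36 (1.03), SLC25A29 (0.76) and SLC25A37 (0.45), which had -0.79, -0.83, -1.10 and -1.43 under spike-ins. The call of SLC25A29 was lost when nucleus replicate 1, 3 or 4 or whole-cell replicate 2, 3 or 4 was left out (edgeR adjusted p = 0.0575 to 0.184). Without the low-count filter the calls of SLC25A29 and SLC25A37 were lost (edgeR adjusted p = 0.171 and 0.144).

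In nuclear wash 1 member was higher and 5 lower than in whole cell (median -0.14), against 14.6% and 19.7% of all genes. The member higher was SLC25A37 at 0.49 ± 0.11 (SE, edgeR adjusted p = 0.00202), which had -3.92 under spike-ins. The 5 lower were SLC25A26 (-0.69), SLC25A46 (-0.66), SLC25A39 (-0.64), SLC25A23 (-0.61) and SLC25A16 (-0.47), and the calls of SLC25A26 and SLC25A16 were lost when single libraries were left out, in 5 and 2 of 8 cases (edgeR adjusted p up to 0.165 and 0.0671). SLC25A6 also passed as lower in the blocked fit by replicate number, at -0.31 (edgeR adjusted p = 0.0203). The 87 higher and 9 lower of the 154 other solute carriers, with a median of 0.66, lay on the other side.

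The undepleted wash was set against the depleted wash in a fit of its own, with 3 and 4 libraries. Of 37 members tested 1 was higher and 2 lower, with a median of -0.08, against 7.74% higher, 3.35% lower and a median of -0.04 over 11627 genes (edgeR). SLC25A23 had 24.9, 21.4 and 27.3 CPM in undepleted and 14.2, 13.3, 13.6 and 15.8 in depleted wash, without overlap (0.78 ± 0.20, SE, edgeR adjusted p = 0.0284). SLC25A13 had 53.3, 44.3 and 27.3 CPM in undepleted and 63.7, 71.1, 73.1 and 66.3 in depleted wash, and SLC25A40 had 17.0, 20.7 and 12.0 in undepleted and 25.3, 36.2, 35.4 and 32.9 in depleted wash. Both lay lower in every undepleted library, by -0.72 ± 0.21 and -0.95 ± 0.23 (SE, edgeR adjusted p = 0.0478 and 0.0263). Each of these 3 calls was lost in 5 of 7 cases when a single library was left out, with edgeR adjusted p up to 0.119 for SLC25A23, 0.195 for SLC25A13 and 0.127 for SLC25A40. With the prefix as a block 3 members were higher and 6 lower, and with spike-in library sizes 0 were called.

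The gene-body table adds reads from introns, which processed mRNA lacks. The intronic share of summed SLC25 gene-body counts was 35.5% ± 4.10 in undepleted wash (SD, n = 3), 41.6% ± 6.36 in nuclear wash, 84.0% ± 2.88 in nucleus, 19.5% ± 1.05 in cytoplasm and 64.0% ± 4.01 in whole cell (SD, n = 4). Over all genes the share averaged 12.5%, 20.1%, 70.0%, 11.01% and 43.2% in the same order of groups. The median of 37 members' own shares was lower than the share of the sum, at 23.9%, 35.0%, 68.2%, 13.3% and 42.6%. The 13 members that overlap no other gene summed to 17.9%, 22.4%, 60.3%, 6.55% and 35.1%. Nucleus was the highest and cytoplasm the lowest by each of these measures.

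**Figure D5:**
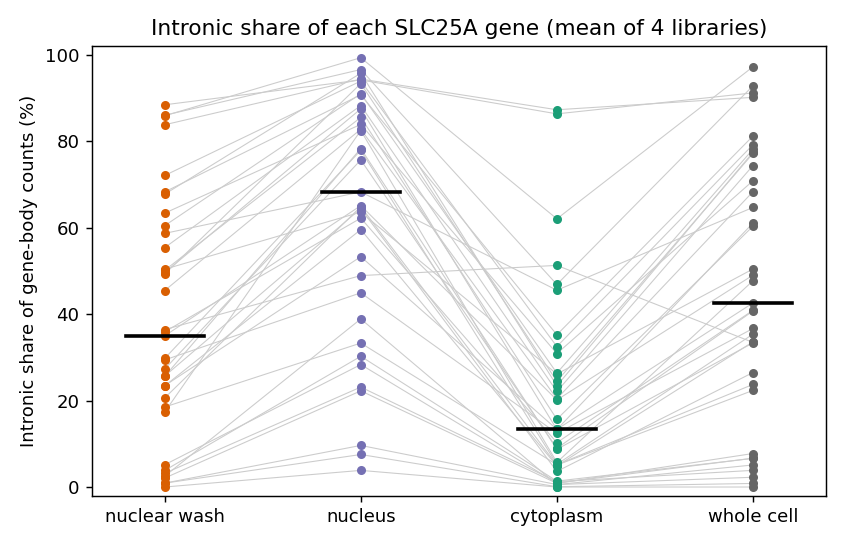
Intronic share of gene-body counts of each of 37 tested SLC25A genes (mean of 4 libraries), with grey lines joining a gene across fractions and black bars at the medians of 35.0% in nuclear wash, 68.2% in nucleus, 13.3% in cytoplasm and 42.6% in whole cell. SLC25A10 and SLC25A51 are left out because their gene-body counts fell below their exon counts in all 16 libraries.

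Members differed widely in this share. SLC25A5 had 0.897% in nuclear wash, 7.52% in nucleus, 0.066% in cytoplasm and 0.824% in whole cell, and SLC25A3 had 3.84%, 30.2%, 1.37% and 6.62% in the same fractions. In SLC25A16, the member highest in nucleus relative to cytoplasm, the share was 58.7% in nuclear wash, 68.2% in nucleus, 45.5% in cytoplasm and 64.7% in whole cell. SLC25A36 had 29.4%, 44.9%, 12.4% and 36.7%, and SLC25A37 had 23.4%, 53.3%, 13.3% and 42.6%. In cytoplasm the share passed 50% in SLC25A12, SLC25A21, SLC25A41 and SLC25A53, of which all but SLC25A41 overlap other genes. In gene-body counts 13 members were higher and 17 lower in nucleus than in cytoplasm of 38 tested, with a median of -0.38, so exon and gene-body counts differ in how many members stand on each side. Exon counts can also come from unspliced RNA, and the tables do not separate it from processed mRNA.

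Relatives and partners of the family were read from lists written from general knowledge. Of the carriers with other symbols, UCP2, MTCH1 and MTCH2 were tested, and all 3 were lower in nucleus than in cytoplasm (-1.96, -1.04 and -1.84) and lower in nuclear wash than in cytoplasm (-0.88, -0.67 and -0.78). The import machinery that inserts carriers gave 12 lower and 1 higher of 15 in nucleus against cytoplasm (median -1.67), beside 37.5% and 39.3% of all genes tested. In nuclear wash against cytoplasm it gave 9 lower and 0 higher (median -0.55), beside 21.4% and 22.8%. In nuclear wash against nucleus it gave 10 higher and 1 lower (median 1.03, under TMM), beside 36.7% and 35.4%. TIMM8B, a small chaperone of the intermembrane space, fell by 2.91 in nucleus and 1.05 in nuclear wash against cytoplasm, while TOMM5, a small subunit of the TOM pore, was higher in nucleus by 1.04 and lower in nuclear wash than in nucleus by -1.04. TIMM10, the partner chaperone of the carriers, was higher in nuclear wash than in nucleus by 1.92 under TMM and had -0.65 under spike-ins.

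Other transporters of the inner membrane did not share 1 direction. Of 12 tested, 2 were higher and 6 lower in nucleus than in cytoplasm (median -0.40), beside 39.3% and 37.5% of all genes tested. In nuclear wash 4 were higher and 4 lower than in cytoplasm (median -0.14), beside 22.8% and 21.4%. SFXN1, a mitochondrial serine transporter, fell by 2.04 in nucleus and 0.73 in nuclear wash against cytoplasm. SFXN5, a relative, was higher in nucleus by 0.95, and ABCB8, an ATP-driven transporter, was higher in nuclear wash than in cytoplasm by 0.91. ABCB10 (0.68) and LETM1 (0.86) were also higher in nuclear wash, and under spike-ins the fold changes were -2.28 for ABCB8, -2.49 for ABCB10 and -2.33 for LETM1.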

How the data were processed

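Per the submitters' processing notes, cutadapt 2.5, STAR 2.7.0a, featureCounts 1.6.2 and hg38 were used. The authors deposited raw counts per gene in a pair of tables, over exons and over gene bodies, with no normalization. The sources used here do not give annotation release, strand setting or handling of shared reads, so values of overlapping, antisense and near-identical genes are uncertain. Per the labels' protocols, yeast RNA spike-ins were added; their amount is not stated, so spike-in scaling gives no RNA amounts. Symbols and coordinates were taken from GENCODE 29 (57447 of 58051 identifiers found), and 0 columns were left unused.

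Exon counts of the 16 depleted libraries (and, separately, of 7 wash libraries) were filtered by filterByExpr, scaled by TMM and tested by quasi-likelihood F tests in edgeR 4.0.16. The steps were tested on simulated data, in which low-count genes with a known change were often missed. After a draw had failed for this reason, recovery was required only of genes at 10 CPM or more. Few genes were changed in the simulation, evenly in both directions, so it cannot test the scaling where many genes differ. SE is the size of a log2 fold change over the square root of its F statistic. Calls are at a Benjamini-Hochberg adjusted p under 0.05 over all genes. The intronic share is gene-body minus exon counts over gene-body counts. Alternatives included DESeq2 1.42.0, other scalings, filters, single prefixes and leaving out each library.

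Same-numbered libraries deviated together from their group means in 24 of 24 pairs (r 0.104 to 0.379, and 0.193 to 0.417 for undepleted and depleted wash paired by prefix), so the numbers were read as pairing the samples, although 11 of the 24 pairs correlated best with their own number. Blocked values are given where they change the call of a member reported by name. Within groups, no pair of libraries agreed within sampling noise. Nucleus replicates 3 and 4 came closest, with a chi-square per degree of freedom of 1.22, where counting noise alone gives about 1. The other pairs within groups had 2.38 or more.

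Members, lists and tests were chosen with earlier results of these data known. Library values are given for the ADP/ATP carriers, SLC25A3, the iron, heme and glutathione carriers, and the 3 called members per direction that changed most at 10 CPM or more, and other lists name their extremes. Values of 1 member and of 2 genes in other lists are not reported here, and they remain in the fits and counts. Members called in a direction with 5 or fewer calls were also named after their values were seen. Intervals for counting error were not used and the labels name no molecular identifiers, so PCR copies may be counted.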

Additional observations from a re-analysis of the deposited data

Results flagged for a closer look

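In 5 of 164 groups of 4 libraries, 1 library lay farther from the other 3 than Dixon's 95% critical value for the gap over the range allows. Chance alone flags about 1 in 20 groups, or 8.2 of 164. SLC25A35 had 1.10 CPM in nuclear wash replicate 1, against 4.46 to 4.71 in the other wash libraries. SLC25A39 had 29.8 CPM in whole cell replicate 3, against 34.9 to 35.8. SLC25A42, in cytoplasm replicate 3, had 26.5 CPM, against 27.5 to 27.6. SLC25A44 had 23.0 CPM in whole cell replicate 1, against 17.9 to 18.7. SLC25A53, again in cytoplasm replicate 3, had 2.94 CPM, against 1.86 to 2.03.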

How the results depend on the processing

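Counts of SLC25 members called are given as a total with higher and lower in brackets. For nucleus against cytoplasm (29 in the fit reported), RLE factors gave 32 (8, 24), no composition factor 31 (13, 18), spike-in library sizes 34 (3, 31) and gene-body counts 30 (13, 17). For nuclear wash against cytoplasm (26), spike-ins gave 39 (0, 39) and gene-body counts 26 (9, 17). Nuclear wash against nucleus (18) had 20 (12, 8) under RLE factors and under DESeq2, 22 (6, 16) without composition factor, 37 (0, 37) under spike-ins, 26 (15, 11) in gene-body counts and 19 (11, 8) with only the 2 groups compared. Cytoplasm against whole cell (22) had 13 (8, 5), 38 (0, 38) and 28 (18, 10) without composition factor, under spike-ins and in gene-body counts. Nucleus against whole cell (23) had 21 (11, 10), 39 (0, 39) and 22 (10, 12) in the same 3 settings, and 24 (2, 22) without a filter. Nuclear wash against whole cell (6) had 15 (0, 15), 39 (0, 39), 14 (8, 6) and 4 (1, 3) in these 4, and 4 (1, 3) with prefix 1 only and with only the 2 groups. Undepleted against depleted wash (3) had 4 (2, 2) under RLE factors and DESeq2, 14 (0, 14) without composition factor, 0 under spike-ins, 4 (0, 4) without a filter, 3 (3, 0) in gene-body counts, 3 (2, 1) without mitochondrially encoded and rRNA genes, 0 with prefix 1 only and 8 (2, 6) with prefix 2 only.

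Leaving out each library gave 28 to 32, 22 to 26, 17 to 19, 18 to 23, 21 to 24, 5 to 7 and 0 to 3 calls in these 7 comparisons, in the order given. With the replicate block the same 7 comparisons had 30 (5, 25), 28 (5, 23), 20 (16, 4), 25 (21, 4), 27 (6, 21), 7 (1, 6) and 9 (3, 6), and among members reported by name in the first 6 of these the block changed no calls beyond the 4 gained and given in the report.

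Among the members reported by name, fold changes that changed sign under spike-ins were, for nucleus against cytoplasm, SLC25A12 -0.55, SLC25A28 -0.012, SLC25A37 -0.22 and SLC25A40 -0.51, and for nuclear wash against cytoplasm SLC25A16 -2.11, SLC25A28 -2.63, SLC25A29 -1.69, SLC25A36 -2.85, SLC25A37 -2.71, SLC25A41 -1.48 and SLC25A53 -2.32. For nuclear wash against nucleus they were SLC25A1 -1.13, SLC25A3 -1.22, SLC25A4 -2.01, SLC25A5 -0.12, SLC25A6 -0.41, SLC25A15 -1.28, SLC25A23 -1.64, SLC25A37 -2.49 and SLC25A38 -1.90. Against whole cell they were, in cytoplasm, SLC25A3 -0.54, SLC25A5 -0.32 and SLC25A6 -0.42, in nucleus SLC25A16 -0.79, SLC25A29 -1.10, SLC25A36 -0.83 and SLC25A37 -1.43, and in nuclear wash SLC25A3 -4.27, SLC25A5 -4.34 and SLC25A37 -3.92.

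Without composition factor the sign changed in nucleus against cytoplasm for SLC25A17 (0.073), SLC25A25 (0.55), SLC25A26 (0.55) and SLC25A42 (0.10), and in nuclear wash against nucleus for SLC25A4 (-0.12), SLC25A37 (-0.64) and SLC25A38 (-0.036). In gene-body counts it changed in nucleus against cytoplasm for SLC25A13 (0.88), SLC25A14 (0.40), SLC25A17 (1.01), SLC25A21 (3.12), SLC25A25 (1.26), SLC25A26 (2.35), SLC25A33 (0.58), SLC25A37 (-0.20), SLC25A42 (0.74) and SLC25A43 (0.83), in nuclear wash against cytoplasm for SLC25A17 (0.31), SLC25A21 (0.88), SLC25A25 (0.33) and SLC25A26 (0.70), and in nuclear wash against nucleus for SLC25A35 (0.041) and SLC25A39 (0.95). Scalings shift all genes together by construction, and gene-body counts add introns. The cause of the other moves was not tested.

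The intronic share, summed over members, was 41.6% in nuclear wash, 84.0% in nucleus, 19.5% in cytoplasm, 64.0% in whole cell and 35.5% in undepleted wash. It came to 22.4%, 60.3%, 6.55%, 35.1% and 17.9% over members overlapping no other gene, and to 35.0%, 68.2%, 13.3%, 42.6% and 23.9% as the median of the members' own shares. Depth limits members of few counts such as SLC25A41 and SLC25A53, and the undepleted wash, whose SLC25 counts were 930 to 1539 per library.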
